A study of Mus musculus with 32 samples.

Results

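The cells described here are osteoblast-lineage cells that carried a high level of 6 chosen genes together with little osteocalcin RNA. They were chosen by measured values in the first of the 2 sequencing runs. Each kept cell received a score, the mean of log(1 + UMIs per 10,000) over these genes (Cthrc1, Col11a1, Fkbp11, Smpd3, Cgref1 and Slc13a5). The 20% of cells with the highest score were taken over all pools, and the cells among them below the median of the summed osteocalcin genes Bglap, Bglap2 and Bglap3 are the osteocalcin-low cells. They numbered 4877 of 48776 kept cells. They were set beside the 4877 high-scoring cells above that median (osteocalcin-high cells) and the 39021 cells outside the top 20% (remaining cells), and 1 cell lay exactly at the median.

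The samples were BMSC-OBs, which are bone marrow stromal cells turned towards osteoblasts in culture, made from the femurs of Diversity Outbred mice, an outbred stock with no treatment groups. Cells of 4 to 5 mice were combined into each of 16 pools, from 77 mice in all, and every pool was profiled by 3' single-cell RNA-seq on the 10x Genomics platform and sequenced in 2 runs. All cultures received ascorbic acid, beta-glycerophosphate and dexamethasone, and neither a genotype nor an age was given in the labels. A pool is therefore the replicate, and a value of a pool is an average over several outbred mice. Cells cannot be traced here to single mice. The classes of a pool may hold its mice in unlike shares, so differences between classes and between mice cannot be told apart.

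Osteoblasts arise from mesenchymal progenitors under the transcription factors Runx2 and Sp7 (osterix), first lay down a matrix rich in type I collagen, and then mineralise it. Osteocalcin, a small secreted protein that binds calcium, is a classical late product of the osteoblast, whereas alkaline phosphatase comes early and sclerostin, Mepe and Phex mark cells that become osteocytes. Among the genes of the score, Cthrc1 and Col11a1 encode secreted matrix proteins, Fkbp11 a prolyl isomerase of the secretory pathway, Smpd3 a sphingomyelinase required for bone mineral, Cgref1 a secreted growth regulator and Slc13a5 a citrate carrier of the plasma membrane.

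The selection is a range along 2 continuous measures, not a separate cluster. The score threshold lay at 1.87, and 999 osteocalcin-low cells (20.5%) had a score within 0.1 above it. The osteocalcin threshold was 72.4 UMIs per 10,000, the highest osteocalcin-low cell had 72.3 and the lowest osteocalcin-high cell 72.4. Within 20% of that threshold lay 472 osteocalcin-low cells (9.68%). Osteocalcin was low but seldom absent, with a median of 17.1 UMIs per 10,000 and a 10th to 90th percentile range of 1.82 to 57.5, and 61 cells (1.25%) had no osteocalcin UMI. The osteocalcin-high cells had a median of 219 and the remaining cells one of 4.12. The remaining cells spread widely, with a 90th percentile of 136, so that some of them were rich in osteocalcin. In Tyrobp-rich cells (at least 5 Tyrobp UMIs per 10,000, 7249 cells of the leukocyte type, which should lack osteocalcin), the median per pool was between 0 and 3.02. The lowest osteocalcin-low cells were thus at the level of Tyrobp-rich cells, a rough guide to free RNA.

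The genes used by the rule are given as values, without a test. Over the 16 pools, Bglap averaged 16.05 ± 2.94 UMIs per 10,000 (SD, n = 16) in the osteocalcin-low cells against 205 ± 37.2 in the osteocalcin-high cells, and Bglap2 averaged 7.64 ± 2.82 against 79.3 ± 39.1. Bglap3 averaged 1.28 ± 0.649 against 10.8 ± 5.23. The remaining cells averaged more than the osteocalcin-low cells, with 35.9 ± 20.2 for Bglap, 13.8 ± 9.57 for Bglap2 and 2.05 ± 1.70 for Bglap3. These 3 genes lie next to each other on chromosome 3 (GRCm38, 88383501 to 88384464, 88377736 to 88378699 and 88368616 to 88372743, in the order named) and are close copies, so reads may have been split between them and only their sum was used to choose cells. The score genes were not carried evenly by the 2 classes. Slc13a5 averaged 7.11 ± 0.699 in the osteocalcin-low cells and 5.45 ± 0.750 in the osteocalcin-high cells, and Smpd3 6.54 ± 1.62 and 5.15 ± 1.15. Both were higher in the osteocalcin-low cells in 15 of 16 pools. Col11a1 went the other way in 16 of 16 pools, with 23.7 ± 2.81 against 32.6 ± 5.45, and Cgref1 in 15 of 16 pools, with 4.46 ± 0.445 against 5.31 ± 0.845. Cthrc1 (8.96 ± 1.47 against 9.69 ± 2.27) and Fkbp11 (9.64 ± 1.78 against 9.58 ± 1.61) were not higher in 1 class throughout, both being higher in the osteocalcin-low cells in 6 of 16 pools.

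The sequences ahead of 4 gene starts are shown because they belong to the genes on which the description turns, namely 2 of the osteocalcin genes that set the classes, and a matrix gene that was higher (Tnn) and one that was lower (Thbs4) in the osteocalcin-low cells. Each run holds the 250 bases before the outermost RefSeq start on the gene's own strand (GRCm38.p6, 5′ to 3′). Bglap is at chr3:88384467-88384716, Bglap3 at chr3:88372742-88372991, Tnn at chr1:160153576-160153825 and Thbs4 at chr13:92794819-92795068, all on the minus strand. Capitals mark ACCACA, the core letters bound by Runx factors, searched on both strands (TGTGGT on the other).
Bglap: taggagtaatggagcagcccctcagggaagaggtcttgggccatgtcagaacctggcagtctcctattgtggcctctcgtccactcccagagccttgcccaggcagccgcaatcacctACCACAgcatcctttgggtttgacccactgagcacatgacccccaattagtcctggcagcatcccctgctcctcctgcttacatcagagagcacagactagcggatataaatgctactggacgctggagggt
Bglap3: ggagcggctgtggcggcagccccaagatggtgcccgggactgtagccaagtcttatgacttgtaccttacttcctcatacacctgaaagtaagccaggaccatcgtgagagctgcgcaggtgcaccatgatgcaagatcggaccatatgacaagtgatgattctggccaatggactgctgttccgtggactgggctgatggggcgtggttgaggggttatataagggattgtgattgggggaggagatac
Tnn: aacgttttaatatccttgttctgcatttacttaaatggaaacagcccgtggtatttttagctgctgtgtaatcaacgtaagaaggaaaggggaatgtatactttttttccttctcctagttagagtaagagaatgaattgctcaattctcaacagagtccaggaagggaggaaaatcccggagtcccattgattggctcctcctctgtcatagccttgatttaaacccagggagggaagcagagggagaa
Thbs4: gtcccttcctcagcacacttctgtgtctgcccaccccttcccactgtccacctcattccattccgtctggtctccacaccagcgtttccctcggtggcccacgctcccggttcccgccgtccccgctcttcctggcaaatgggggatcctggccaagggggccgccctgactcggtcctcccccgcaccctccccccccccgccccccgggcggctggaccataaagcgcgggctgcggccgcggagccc
The letters occurred once in the Bglap window, beginning 132 bases before the start, and in none of the other 3 windows. Only the outermost start of each gene was used. Bglap3 spans a longer stretch than Bglap, so its window need not be the counterpart of the Bglap window. Of 32851 promoter windows of this length, 14.0% held them.

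Markers of known cell types were compared after each cell was thinned to 5000 UMIs. Every osteocalcin-low cell carried Ibsp (bone sialoprotein) and Col1a1, 91.6 ± 3.55% of them (mean ± SD over 16 pools) carried Ifitm5, a membrane protein of mineralising osteoblasts, and 64.0 ± 10.4% carried Dmp1, an acidic matrix protein of late osteoblasts and osteocytes. In the osteocalcin-high cells, Ifitm5 was found in 94.2 ± 2.91% and Dmp1 in 68.1 ± 9.09%, and in the remaining cells in 36.7 ± 9.10% and 26.9 ± 7.93%. Ifitm5 and Dmp1 were found in 7.57% and 7.06% of Tyrobp-rich cells, a rough guide to free RNA. Before thinning, Tyrobp-rich cells had a median of 8108 UMIs and osteocalcin-low cells one of 22647. Free RNA may therefore take an unlike share of their UMIs. Ibsp and Col1a1 UMIs were in 93.9% and 91.1% of Tyrobp-rich cells and therefore mark nothing by their presence alone.

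All 6 markers of late mesenchymal progenitors were found in a smaller share of the osteocalcin-low cells than of the remaining cells, among them Tagln in 9.71 ± 2.93% against 40.1 ± 6.55%, Timp3 in 20.5 ± 8.30% against 51.5 ± 8.81% and Acta2 in 22.4 ± 7.56% against 45.2 ± 7.12%. Tyrobp-rich cells carried Tagln in 6.81%, Timp3 in 15.3% and Acta2 in 16.1%, so that the shares of these 3 genes stood a little above those of Tyrobp-rich cells. How far they stood above the free RNA of the osteocalcin-low cells themselves was not tested. Tpm2 (33.7% against 11.5% of Tyrobp-rich cells) and Col3a1 (31.2% against 9.34%) stood further above the Tyrobp-rich cells. The adipogenic markers Adipoq, Cxcl12, Lpl, Kitl and Igfbp4 were in a smaller share of osteocalcin-low cells than of Tyrobp-rich cells, and Lepr in a larger one (3.54% against 1.82%). Lpl was in 52.4% of Tyrobp-rich cells and only 29.1% of the remaining cells, so for Lpl the comparison says nothing about free RNA. Before thinning, the endothelial markers Cdh5 and Emcn were in 0.0820% and 0.205% of osteocalcin-low cells and the glial marker Sox10 in 0.0205%. All 6 progenitor markers were in a larger share of the osteocalcin-low than of the osteocalcin-high cells, as for Acta2 (22.4% against 12.9%), Tpm2 (33.7% against 20.8%), Tagln (9.71% against 5.10%) and Aspn (4.40% against 3.55%), and of the 6 osteocyte-like markers Dmp1, Mepe (23.1% against 35.2%), Phex and Sost were in a smaller one, and Irx5 (45.5% against 41.2%) and Pdpn (7.36% against 6.66%) in a larger one. The name immature osteoblast progenitor was therefore only partly borne out by these markers, and the cells are called osteocalcin-low cells throughout.

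**Figure D1:**
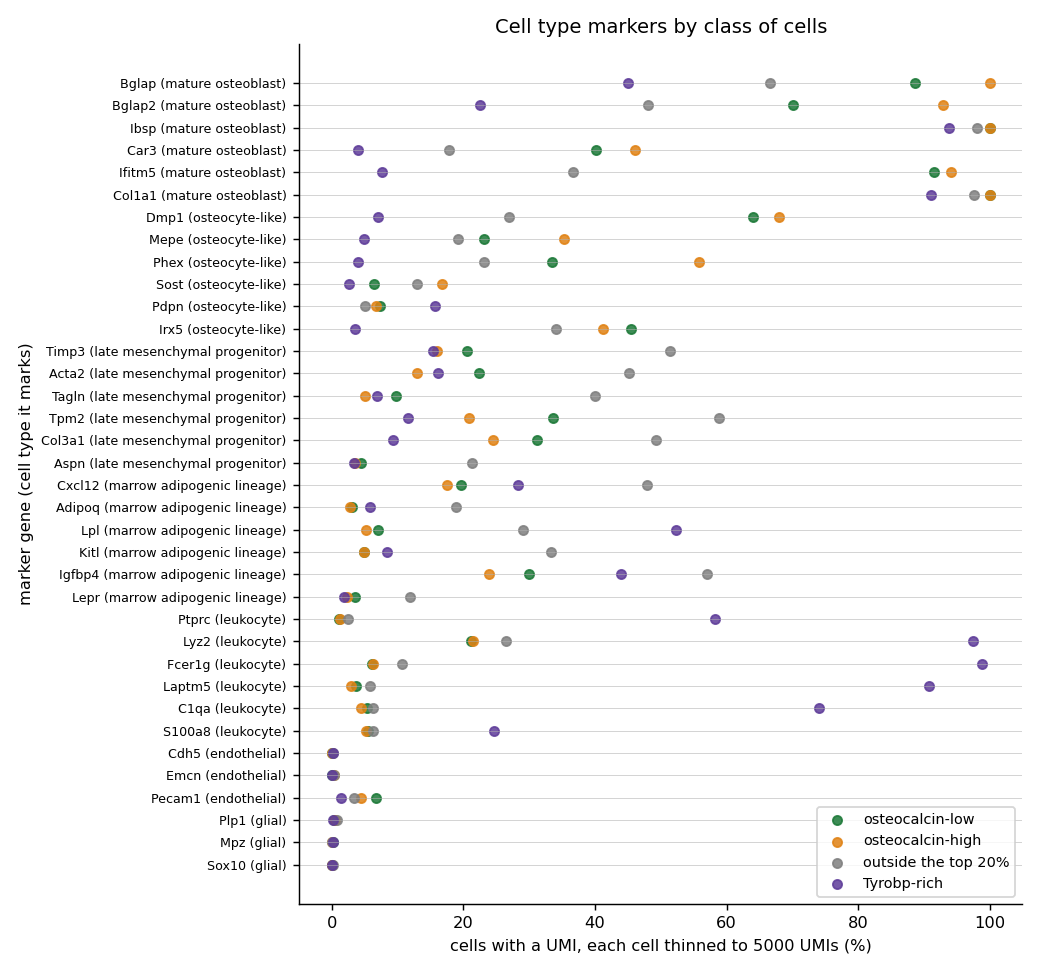
Share of cells with at least 1 UMI of each marker gene (x axis, percent, each cell thinned to 5000 UMIs) for the osteocalcin-low cells, osteocalcin-high cells, remaining cells (means over 16 pools) and all Tyrobp-rich cells. The osteocalcin-low and osteocalcin-high points lie close together for Ifitm5 and Dmp1 and far from the remaining cells, while Phex (33.5% against 55.8%) and Sost (6.43% against 16.7%) separate them.

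Every pool held osteocalcin-low cells, from 47 in pool 7 to 701 in pool 17. As a share of a pool's kept cells they ranged from 1.89% in pool 1 (95% exact Clopper-Pearson interval 1.40 to 2.50) over a median of 9.81% to 17.7% in pool 17 (16.5 to 18.9), with a mean of 9.59 ± 5.27% (SD, n = 16). The intervals cover counting error only, and those of the 5 lowest pools (1, 2, 7, 5 and 6) did not reach those of the other 11. Among the high-scoring cells of a pool, between 25.1% (pool 2) and 70.9% (pool 10) were osteocalcin-low, since the osteocalcin threshold was set over all pools. The median osteocalcin level within the osteocalcin-low cells was 7.06 UMIs per 10,000 in pool 10 and 31.7 in pool 1. The labels give no treatment that could be compared between pools.

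**Figure D2:**
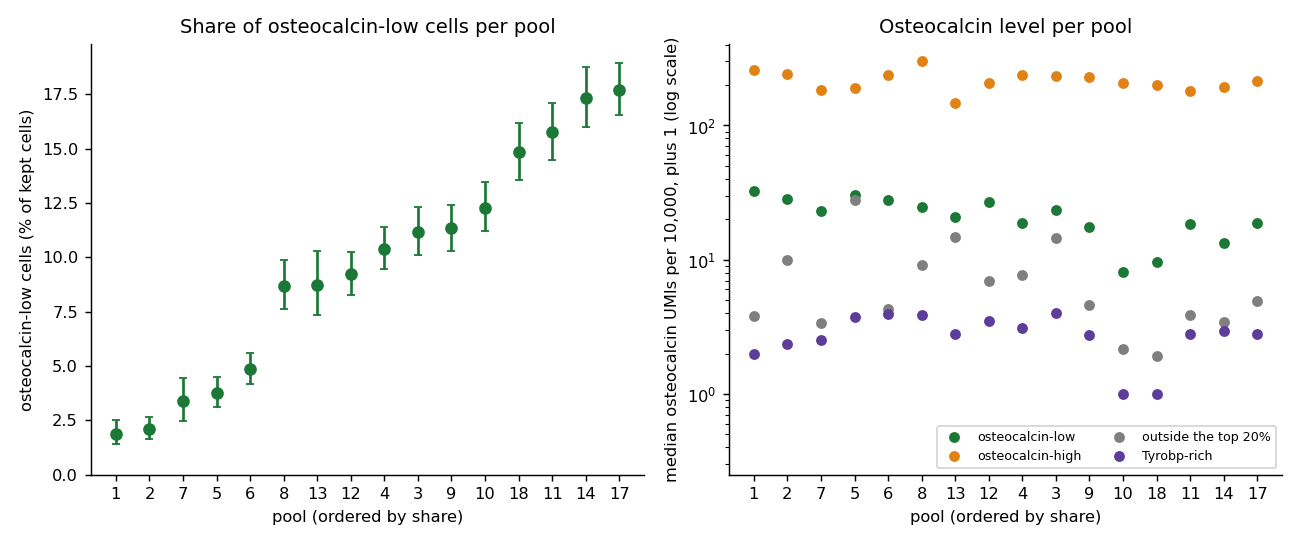
Left, osteocalcin-low cells as a percentage of kept cells in each of the 16 pools, with 95% exact binomial intervals as bars. Right, the median osteocalcin level per pool in UMIs per 10,000 plus 1 (log axis) in the 3 classes and in Tyrobp-rich cells. Shares run from 1.89% to 17.7%, and in every pool the osteocalcin-low cells lie above the Tyrobp-rich cells.

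The second sequencing run of the same libraries gave a check of the choice itself. Of the 4877 osteocalcin-low cells, 4824 were kept in run 2, and 4216 (86.4%) were chosen again. In run 2, 73 fell among the osteocalcin-high cells and 535 outside the top 20%. Only 3 barcodes of osteocalcin-low cells occurred in more than 1 pool. Doublet calling marked 380 osteocalcin-low cells (7.79%), 284 osteocalcin-high cells (5.82%) and 2671 remaining cells (6.85%). Droplets with RNA of both Xist and Y-linked genes made up 1.46%, 1.29% and 1.10% of the 3 classes.

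Per-cell measures were then compared between osteocalcin-low and osteocalcin-high cells of the same pool by exact two-sided sign-flip permutation tests over 16 pools, adjusted over the 6 measures. The median UMI count per cell was 24626 ± 5407 (mean ± SD over pools) and 24203 ± 5848, a difference of 423 ± 1436 (SD) that did not pass (exact permutation, adjusted p = 0.251). The osteocalcin-low cells held more detected genes, 4216 ± 387 against 4031 ± 409 per cell, in 14 of 16 pools (exact permutation, adjusted p = 0.00311). Ribosomal protein RNA took 17.8 ± 1.502% of their UMIs against 15.1 ± 2.05%, higher in 15 of 16 pools (exact permutation, adjusted p = 0.000366). Osteocalcin itself is part of that total. The mitochondrial share was 2.74 ± 0.345% and 2.84 ± 0.405%, and the difference did not pass (exact permutation, adjusted p = 0.0663). It passed at about the same size without called doublets (exact permutation, adjusted p = 0.0344), with each pool's own osteocalcin median (0.0201) and in run 2 (0.0360).

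After each cell was thinned to 5000 UMIs, cells with at least 3 UMIs of mitosis genes made up 3.20 ± 2.30% of the osteocalcin-low cells. They made up 1.74 ± 2.94% of the osteocalcin-high cells and 9.67 ± 4.72% of the remaining cells. The osteocalcin-low share was the higher one in 12 of 16 pools (exact permutation, adjusted p = 0.0284). Without called doublets the shares were 2.49 ± 2.02% and 1.53 ± 3.06%, and the call was lost (exact permutation, adjusted p = 0.182). Leukocyte markers summed to 2.09 ± 0.927 UMIs per 10,000 in the osteocalcin-low cells and 1.88 ± 1.04 in the osteocalcin-high cells (exact permutation, adjusted p = 0.235). In run 2 the difference passed, with 2.20 ± 0.919 against 1.72 ± 0.652 (exact permutation, adjusted p = 0.0222, higher in 11 of 16 pools).

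The main comparison asked which genes outside the rule went with low osteocalcin among equally high-scoring cells. Counts were summed per pool and class, the 10 rule genes were taken out of the table and the library sizes, and each pool was its own block. Of 11185 genes tested by edgeR's quasi-likelihood test, 3552 (31.8%) passed a Benjamini-Hochberg adjusted p of 0.05, with 1838 (16.4%) higher and 1714 (15.3%) lower in the osteocalcin-low cells. With library size alone as the scale, in place of TMM (trimmed mean of M-values), 4393 genes passed and 78.2% of them were higher, against 51.7% with TMM. Most differences were small, 88 of the called genes exceeding a log2 fold change of 1, and for no called gene were the 16 values of one class separate from those of the other. A total of 248 called genes moved in the same direction in every pool.

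Genes of largest rise included the contractile genes Acta2 and Tpm2, the tenascin gene Tnn and the collagen gene Col12a1. Acta2 (ENSMUSG00000035783, smooth muscle actin, GRCm38 chromosome 19, 34241090 to 34255590) had 39.9, 98.4 and 217 normalised UMI counts per 1000000 (CPM) as the lowest, median and highest pool in the osteocalcin-low cells and 21.1, 36.8 and 132 in the osteocalcin-high cells. CPM in the class comparisons are on the TMM scale. The ranges overlapped (log2 fold change 1.36 ± 0.11 SE, edgeR adjusted p = 1.57e-09). In the remaining cells, the pool mean of Acta2 was far above both, at 10.1 UMIs per 10,000 against 1.13 in the osteocalcin-low and 0.445 in the osteocalcin-high cells.

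Tnn (ENSMUSG00000026725, tenascin-N or tenascin-W, an extracellular glycoprotein of osteogenic fronts and periosteum, chromosome 1, 160085029 to 160153580) ranged from 58.7 over 137 to 208 CPM in the osteocalcin-low cells and from 18.9 over 61.1 to 115 CPM in the osteocalcin-high cells. The difference of 1.17 ± 0.11 on the log2 scale passed although the ranges overlapped (edgeR adjusted p = 8.21e-09). Col12a1 (ENSMUSG00000032332, a fibril-associated collagen, chromosome 9, 79598991 to 79718831) ranged from 61.6 over 125 to 173 CPM against 26.9 over 58.9 to 85.6 CPM, a log2 difference of 1.07 ± 0.07. Tpm2 (beta-tropomyosin) averaged 117 ± 19.5 against 60.4 ± 19.3 CPM. One osteocalcin-high pool reached 127 CPM of Tpm2, above the osteocalcin-low median of 122.

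A further 5 genes of largest rise had log2 fold changes between 0.64 and 0.91. They were Plp2, a membrane proteolipid (0.91), Lgals3, which encodes galectin-3 (0.71), Gys1, the muscle-type glycogen synthase (0.71), Eno1, the glycolytic enolase (0.69), and Lrrfip1 (0.64). Plp2 overlapped little between the classes, with 50.4 to 92.1 CPM over the osteocalcin-low pools and 22.6 to 59.7 CPM over the osteocalcin-high pools. Eno1 varied more between pools than between classes, from 75.8 to 568 CPM and from 54.4 to 372 CPM.

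The lower side included a nuclear envelope partner and a thrombospondin. Mlip (muscle lamin-interacting protein, ENSMUSG00000032355, chromosome 9, 77102081 to 77352969) had 10.9, 19.0 and 31.5 CPM as the lowest, median and highest pool in the osteocalcin-low cells and 28.7, 49.0 and 76.9 CPM in the osteocalcin-high cells. Only the edges of the ranges met, and the fold change was -1.45 ± 0.09 on the log2 scale (edgeR adjusted p = 3.55e-11). Thbs4 (thrombospondin-4, a secreted matrix glycoprotein, ENSMUSG00000021702, chromosome 13, 92751590 to 92794818) ranged from 62.8 over 338 to 771 CPM against 346 over 773 to 1452 CPM, a log2 fold change of -1.26 ± 0.11.

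Serpinf1, the gene of pigment epithelium-derived factor, whose loss causes a form of brittle bone disease, was at 944 ± 167 against 1508 ± 269 CPM (log2 fold change -0.68 ± 0.04). A further 6 genes of largest fall were Kazald1 (-0.76), which encodes a secreted protein with an IGF-binding-like domain, Entpd3, an ectonucleotidase (-0.71), Smox, spermine oxidase (-0.67), Fap, a serine protease of activated fibroblasts (-0.67), Cpq, a carboxypeptidase (-0.65), and Fxyd1, a regulator of the sodium pump (-0.61), all as log2 fold changes. A direction shared by 16 of 16 pools was a condition for naming these genes and those of largest rise, and is no further evidence for them.

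**Figure D3:**
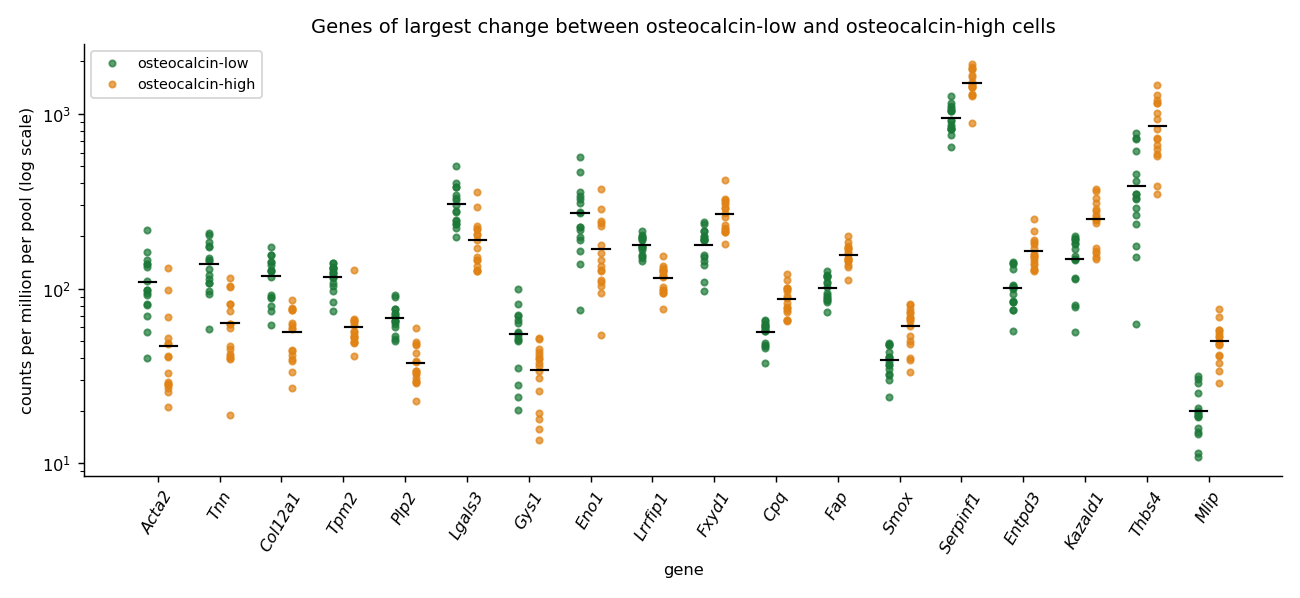
CPM (log axis) of 18 genes of largest change, with 1 point for each of the 16 pools in osteocalcin-low and osteocalcin-high cells and the mean as a bar. The columns of Mlip barely overlap, whereas Eno1 and Gys1 spread over most of the same range in both classes.

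The gene lists are read against the 31.8% of all tested genes that passed and the median log2 fold change of all tested genes, 0.01. With library size alone that median was 0.09, so small changes in every list depend on the scale. Of 13 osteoblast transcription factors tested, 2 were higher, 5 lower and 6 did not pass, with a median of -0.0046. With library size alone 3 were higher and 1 lower. Runx2, the master regulator of the lineage, was at 73.7, 100.1 and 133 CPM as the lowest, median and highest osteocalcin-low pool and at 77.2, 99.8 and 131 CPM in the osteocalcin-high pools (log2 fold change -0.00 ± 0.03, edgeR adjusted p = 0.941). Sp7 had 148 ± 31.0 against 145 ± 23.4 CPM (0.04 ± 0.06, edgeR adjusted p = 0.693). Tcf7, a partner of beta-catenin, and Creb3l1, a factor that drives collagen secretion, were the higher ones (0.30 and 0.24). Dlx6, Dlx5, Zfhx4 and Atf4 were among the lower ones, by small amounts (-0.28, -0.21, -0.18 and -0.13).

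Genes of bone mineral and matrix were mostly lower, 8 of 14, with 1 higher, 5 not passing and a median log2 fold change of -0.19. The highest-expressed of them moved little. Ibsp had 75912 ± 8491 against 86463 ± 13619 CPM (log2 fold change -0.18 ± 0.04) and was lower in 13 of 16 pools. Sparc (osteonectin) fell further, from 25573 ± 2907 CPM in the osteocalcin-high to 17793 ± 1605 CPM in the osteocalcin-low cells, in 16 of 16 pools (-0.52 ± 0.03). Phex, an endopeptidase of phosphate balance, was at 136 ± 42.6 against 285 ± 101.5 CPM (-1.11 ± 0.12). Spp1 (osteopontin) had a log2 fold change of -0.42 and Ifitm5 of -0.18. Without TMM, Ifitm5 averaged 8.15 against 8.55 UMIs per 10,000. The single gene that rose was Alpl, tissue-nonspecific alkaline phosphatase, the enzyme that frees phosphate for mineral. It had 1566 ± 190 against 1369 ± 193 CPM, higher in 16 of 16 pools (0.20 ± 0.03, edgeR adjusted p = 2.49e-06).

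Osteocyte genes were split. Of 8 tested, 3 were lower, 1 higher and 4 did not pass. Sost, the gene of the Wnt antagonist sclerostin, was at 35.7 ± 19.0 CPM in the osteocalcin-low and 139 ± 98.6 CPM in the osteocalcin-high cells (log2 fold change -1.93 ± 0.16), lower in 14 of 16 pools. Mepe, a matrix phosphoglycoprotein, was at 192 ± 129 against 394 ± 238 CPM (-1.11 ± 0.17). Dmp1 did not pass (614 ± 236 against 685 ± 236 CPM, -0.17 ± 0.09, edgeR adjusted p = 0.154), and Irx3 was higher (0.32).

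Collagens moved in both directions, 7 of 16 being higher and 7 lower, with 2 not passing and a median of -0.03. Col1a1 had 34749 ± 5017 against 47995 ± 6971 CPM and Col1a2 had 29930 ± 2291 against 41790 ± 4941 CPM, both lower in 16 of 16 pools (log2 fold changes -0.46 and -0.48). Col22a1 (-0.94), Col11a2 (-0.73), Col13a1 (-0.64) and Col5a2 (-0.35) were lower as well. The higher ones included Col12a1 (1.07), Col3a1 (0.51) and Col8a1 (0.46). The machinery that folds, exports and crosslinks collagen tilted downwards, 16 of 33 genes being lower and 7 higher, with a median of -0.09, although with library size alone 10 were lower and 10 higher. The procollagen-processing proteases Adamts2 (-0.56) and Bmp1 (-0.47) and the enhancer Pcolce (-0.43) were lower, while the prolyl 4-hydroxylase subunits P4ha3 (0.54, at only 2.83 CPM), P4ha2 (0.36) and P4ha1 (0.24) were higher.

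Matrix genes typical of stromal progenitors were more often higher, 10 of 19 against 3 lower and 6 not passing, with a median log2 fold change of 0.30. After Tnn, the rises were led by Postn (periostin, 0.72), Fbn1 (fibrillin-1, 0.67) and Prss23 (a serine protease, 0.63), and Tnc (tenascin-C) had 200 ± 55.8 against 132 ± 51.2 CPM, higher in 16 of 16 pools. Dcn (decorin) went strongly the other way, with 52.8 ± 30.6 against 123 ± 43.4 CPM (-1.28 ± 0.13). Of 15 regulators and surface genes of mesenchymal progenitors, 6 were higher and 3 lower. Cspg4, the NG2 proteoglycan of pericytes, was higher in 16 of 16 pools (93.2 ± 21.8 against 62.8 ± 15.5 CPM, 0.58), as was Nt5e, the CD73 gene, in 14 (0.51). Pdgfra (-0.34) and Cdh11 (-0.32) were lower.

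The contractile genes rose together, 11 of 13 being higher and 0 lower, with Mylk (0.07) and Cnn1 (0.08) not passing and a median of 0.40. Acta2 (1.36), Myl9 (1.34), Actg2 (1.34) and Tagln (1.202) moved most. Myl9, the regulatory light chain of myosin, had 69.5 ± 16.7 against 30.2 ± 14.6 CPM, higher in 15 of 16 pools. Actg2 shares most of its coding sequence with Acta2, and reads may have been divided between them. Without called doublets 11 of 13 were likewise higher, with a median of 0.42. In the remaining cells the same genes were higher still for 12 of 13.

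**Figure D4:**
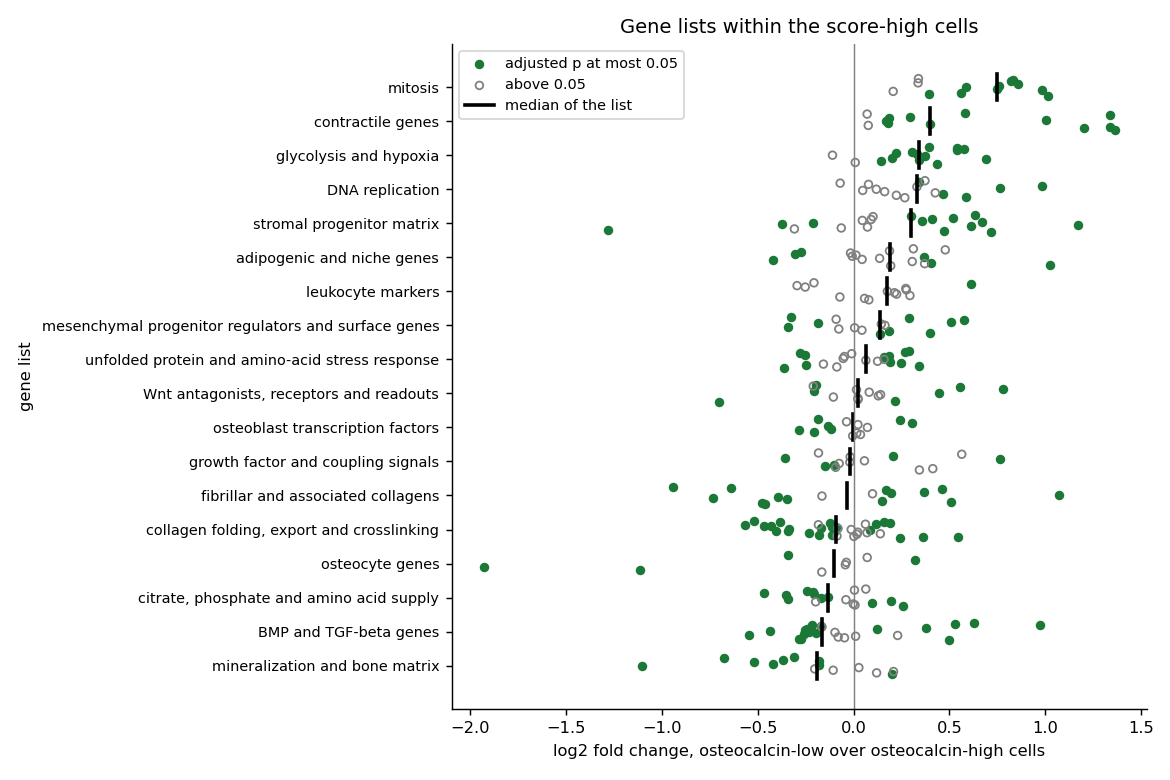
Log2 fold change of osteocalcin-low over osteocalcin-high cells (x axis) for each tested gene of 18 lists (y axis), with genes past an adjusted p of 0.05 filled and the list median as a bar. Mitosis, contractile and glycolysis genes have medians of 0.75, 0.40 and 0.34, and mineralization genes one of -0.19.

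Glycolysis and hypoxia genes were higher in 13 of 15 cases and lower in 0, with a median log2 fold change of 0.34. Besides Eno1 they were led by Egln3, an oxygen-sensing hydroxylase (0.58), Car9, a carbonic anhydrase (0.54), and Ankrd37 (0.54). Pgk1 had 1211 ± 300 against 969 ± 280 CPM in the same direction in 16 of 16 pools, and Slc2a1, the GLUT1 glucose carrier, had 92.4 ± 31.6 against 69.6 ± 26.9 CPM. Hk2 (-0.11) and Pkm (0.01) did not pass. Levels differed more between pools than between classes, and in a fit without the pool block 0 of the 15 passed, with a median of 0.32.

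Cell division genes were low in both classes. Of 13 mitosis genes, 10 were higher in the osteocalcin-low cells and 0 lower, with a median of 0.75, and of 15 DNA replication genes 5 were higher and 0 lower (33.3% called, near the 31.8% of all genes). Mki67, a nuclear protein of cycling cells, was at 5.62 ± 3.81 against 3.44 ± 3.99 CPM (log2 fold change 1.02 ± 0.20) and higher in 13 of 16 pools. Pcna did not pass (0.05). When each cell was thinned to 5000 UMIs, 3 of the 5 mitosis genes still tested passed, without called doublets 9 did, and without the pool block 0 did.

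In the Wnt pathway, 4 of 15 genes were higher and 3 lower, and with library size alone 7 and 2. Axin2 and Nkd2, targets and feedback inhibitors of beta-catenin signalling, were higher (0.78 and 0.55), as was the receptor Kremen1 (0.44), and the antagonist Dkk1 was lower (-0.70) at 17.8 ± 11.7 against 27.8 ± 10.5 CPM. Axin2 rested on few counts, 3.22 ± 1.95 against 1.96 ± 0.97 CPM. In the BMP and TGF-beta pathways, 11 of 23 genes were lower and 6 higher. The ligands Inhba (0.63) and Bmp2 (0.50) were higher, as were the TGF-beta-induced Tgfbi (0.97, at 2.63 against 1.35 CPM) and the binding protein Ltbp2 (0.53), whereas the BMP antagonist Nog (-0.55), the inhibitory Smad6 (-0.43) and the BMP targets Id3 (-0.23) and Id1 (-0.20) were lower. Among growth factors and osteoclast-coupling signals, 2 of 14 were higher, including Tnfrsf11b, the osteoprotegerin gene (0.76), and 3 lower, including Csf1 (-0.36), in all 35.7% of the list and so near the 31.8% of all genes, and with library size alone 4 were higher and 1 lower. Pth1r, the parathyroid hormone receptor, did not pass (0.06).

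Genes of citrate, phosphate and amino acid supply were lower in 8 of 17 cases and higher in 3. The lower ones included Phgdh (-0.46), the first enzyme of serine synthesis, Asns, asparagine synthetase (-0.35), and Slc7a5, a leucine carrier (-0.34), and the higher ones Slc25a1, the mitochondrial citrate carrier (0.26). Genes of the unfolded protein and amino acid stress responses, taken as 1 list, were higher in 7 of 19 cases and lower in 4. Chaperones of the endoplasmic reticulum were among the higher ones (Hyou1 0.29, Calr 0.27, Hspa5 0.25), and Atf5 (-0.36) and Herpud1 (-0.28) among the lower ones.

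Of 17 adipogenic and niche genes, 3 were higher and 3 lower, and 11 did not pass (35.3% called, near the 31.8% of all genes), whereas with library size alone 8 were higher. Lepr, the leptin receptor of marrow stroma, was at 8.54 ± 3.20 against 4.47 ± 2.26 CPM (log2 fold change 1.02 ± 0.13). Of 13 leukocyte markers, 1 passed, Cd74 (0.61), which lost the call and turned to -0.14 without called doublets, and with library size alone 6 were higher. The summed leukocyte level lay between 0.999 and 4.12 UMIs per 10,000 over the osteocalcin-low pools and between 0.821 and 5.05 over the osteocalcin-high pools. Pecam1 was the only endothelial marker with enough counts to be tested (0.24), and S100b the only glial one (0.15, not passing). Their part in the other differences was not tested.

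The high-scoring cells were also put into 10 bins of about 975 cells by osteocalcin level, of which bins 1 to 5 hold the osteocalcin-low cells and the 1 cell at the median, and counts were summed over the pools, so that bins differ in their mixture of pools and are given as a description. CPM of the bins are scaled by library size alone, without TMM. Acta2 had 186 CPM in bin 1, 70.7 CPM in bin 5 and 19.3 CPM in bin 10. Tnn had 175, 107 and 31.1 CPM in the same bins. Thbs4 ran in the opposite sense, from 190 over 474 to 1008 CPM, and Mlip from 9.62 over 25.05 to 70.7 CPM. Across the boundary between bins 5 and 6, Acta2 had 70.7 and 64.7 CPM, Tnn 107 and 87.6 CPM, Mlip 25.05 and 32.9 CPM and Thbs4 474 and 616 CPM. Ibsp spanned only 70286 to 86877 CPM over all bins, and Runx2 90.1 to 105 CPM. The lowest bin had a median of 1.82 osteocalcin UMIs per 10,000 and the highest one of 648.

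**Figure D5:**
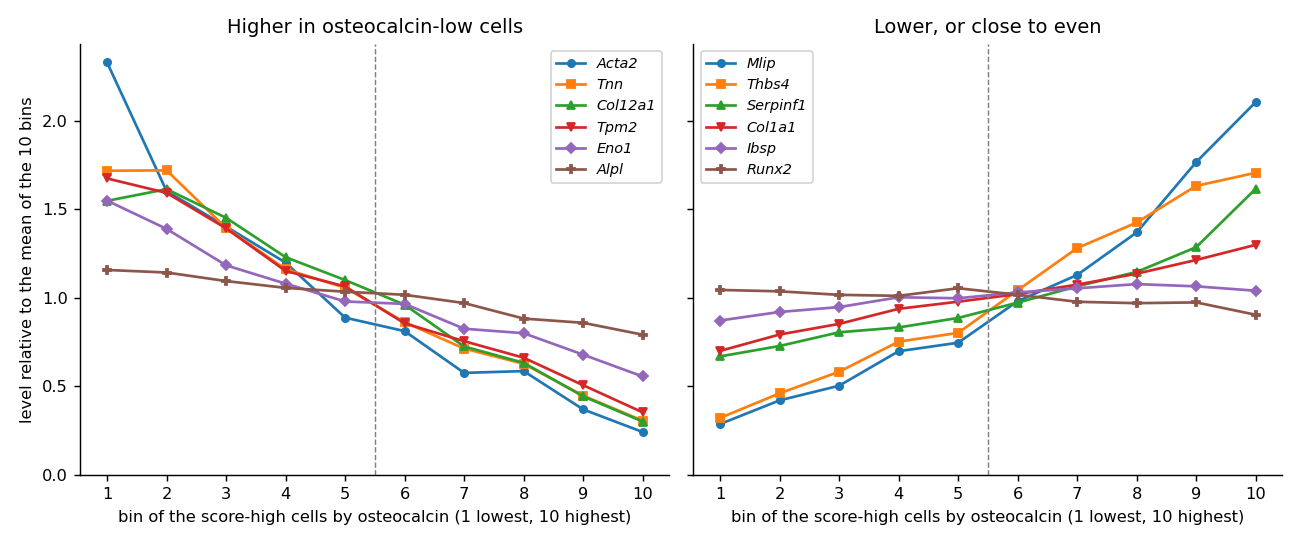
Level of 12 genes (y axis, relative to the mean of the 10 bins) along bins of high-scoring cells ordered by osteocalcin (x axis, 1 lowest). The dashed line separates osteocalcin-low from osteocalcin-high cells. Acta2 falls from 186 to 19.3 CPM and Mlip rises from 9.62 to 70.7 CPM (scaled by library size alone), while Ibsp and Runx2 stay close to 1.

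The osteocalcin-low cells were finally set against the remaining cells of the same pool. These were a mixture of stromal and other cells, some of them rich in osteocalcin. Of 13110 genes tested, 9341 (71.3%) passed, with 4508 (34.4%) higher and 4833 (36.9%) lower in the osteocalcin-low cells. With library size alone as the scale the median of all genes moved from -0.02 to -0.34 on the log2 scale, and 19.95% in place of 48.3% of the called genes were higher. A count of called genes therefore says little about direction here, and fold changes below are those with TMM. The 5 genes of largest rise were Mamdc2, a secreted proteoglycan (log2 fold change 3.32 ± 0.10), Robo2, a receptor for Slit (2.38), Sgms2, sphingomyelin synthase 2, mutated in a bone fragility disorder (2.35), Sema3b, a semaphorin (2.30), and Cd24a, a surface glycoprotein (2.26). The pools of the 2 classes did not overlap for any of these 5, as for 7.79% of all tested genes. Sgms2, for example, had 904 ± 160 against 178 ± 32.7 CPM.

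The 5 genes of largest fall were Iglc1 (log2 fold change -5.73), Cfd (-5.31), Jchain (-4.91), Fmo1 (-4.64) and Igfbp5 (-4.55). Iglc1 and Jchain encode parts of antibodies, made by plasma cells, which the Tyrobp limit does not remove, Cfd is the fat cell product adipsin, Fmo1 is a flavin-containing monooxygenase, and Igfbp5 binds insulin-like growth factors. Iglc1 ranged from 0.0513 to 2180.2 CPM over the pools of remaining cells, and its pools overlapped between the classes.

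All 17 adipogenic and niche genes and 14 of 14 mitosis genes were lower in the osteocalcin-low than in the remaining cells, as were 12 of 13 contractile genes, with medians of -3.24, -1.66 and -1.72. Acta2 (-2.88) and Tagln (-3.78) were thus between the osteocalcin-high and the remaining cells in level. Stromal progenitor matrix genes were lower in 15 of 20 cases (Aspn -3.67, Timp3 -3.02), while Tnn was at 0.36 with TMM and at 0.05, not passing, with library size alone, and Postn did not pass with TMM (-0.27) but was lower with library size alone (-0.58). Collagen folding and export genes were higher in 29 of 33 cases with a median of 1.17 (P4ha1 2.02, P3h1 1.70), and mineral and matrix genes in 12 of 14, or 8 of 14 with library size alone (Ifitm5 2.12, Ibsp 1.51). Of the transcription factors, 10 of 14 were higher, or 8 of 14 with library size alone, beside 34.4% of all tested genes, including Creb3l1 (1.52) and Sp7 (0.57). Runx2 was at 0.18 with TMM and at -0.13 with library size alone, so its direction was not settled. Of 10 osteocyte genes tested, 5 were higher than in the remaining cells, 3 lower and 2 did not pass, with a median of 0.52 (80.0% called, beside 71.3% of all tested genes). Among them Sost was lower (-1.28), and Mepe did not pass (-0.33).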

How the data were processed

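Count matrices of 16 pools of BMSC-OBs, each sequenced in 2 runs, were used, and run 1 was the main data. The deposited values are UMI counts per gene and cell, made by the authors with Cell Ranger 5.0.0 on GRCm38 (mm10) with 31053 genes. The authors did not normalise these counts. Barcodes with 400 to 6200 genes, at most 10% mitochondrial UMIs, at least 5000 UMIs and fewer than 2 Tyrobp UMIs per 10,000 were kept. Total UMIs per pool ran from 53990642 to 100777353, and the median per kept cell from 14354 to 22742.

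The members and the gene lists were chosen with earlier results of these data known. Counts were summed per pool and class, without the 10 rule genes, and fitted with edgeR 4.0.16 (R 4.3.3): filterByExpr, TMM, quasi-likelihood test, pool as block, Benjamini-Hochberg adjustment over all genes tested at 0.05. The script was tested on simulated data. Since members were chosen by osteocalcin, a test asks whether another gene goes with osteocalcin among high-scoring cells. Classes of the same pool were drawn from the same group of mice, but the share of each mouse in each class was not known. The pool block therefore does not remove differences between the mice of a pool. Deviations of the classes correlated within every pool (lowest 0.22 and 0.12 in the comparisons with osteocalcin-high and remaining cells). Each sample correlated best with its own pool in 16 of 16 pools. P-values of the blocked and paired tests weigh the class difference within a pool against the spread of that difference over pools.

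Named genes passed the test, averaged at least 50 CPM in the higher class and moved alike in every pool; of these the 10 largest and 10 smallest log2 fold changes (5 and 5 against the remaining cells) were taken, and a few genes are not reported here. From each list, up to 4 passing genes of largest change and defining genes that did not pass were given, and further list genes were chosen after their values were seen. Doublets (expected 0.8% per 1000 barcodes, scored against simulated doublets with scikit-learn 1.9.0) were called on 6044 of 90924 droplets and kept in the main data. Positions are from GENCODE M21 by gene ID. Alternatives were run 2, doublets removed, ribosomal limits, thinning, DESeq2 1.42.0, other filters, thresholds and pools.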

Additional observations from a re-analysis of the deposited data

How the results depend on the processing

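Against the osteocalcin-high cells, 3552 genes passed, 1838 higher and 1714 lower. Leaving out each pool in turn gave 3132 to 3681, with 1520 to 1885 higher and 1574 to 1808 lower. Without the pool block, 1046 passed (488 and 558), all of them among the 3552. The 8 pools of lower depth gave 1994, with 839 higher, the 8 of higher depth 1537 (767 and 770), thinning to 5000 UMIs 1536 (701 and 835) and the top 10% of the score 2222, with 1076 higher, over 14 pools. Library size alone as the scale, added after seeing the data, gave 3437 higher and 956 lower, and against the remaining cells 2120 higher and 8505 lower. Fewer samples or counts enter the subsets of pools and the thinned counts, and the cause of the other moves was not tested. Run 2 gave 3633 genes, 2906 of them shared, and DESeq2 3214, 3155 of them shared. Without the block, detected genes per cell (difference 185, adjusted p = 0.405, permutation) and mitotic cells (1.46 points, adjusted p = 0.393) lost their calls, and the mitotic share did so without called doublets (0.958 points). The mitochondrial share passed without called doublets (-0.114 points), with each pool's own median (-0.119) and in run 2 (-0.103), and leukocyte markers passed in run 2 (0.479 UMIs per 10,000). Of single genes, Cd74 reversed without called doublets (-0.14) and Runx2 against the remaining cells with library size alone (-0.13). Counted over single genes and alternatives, 175 calls were lost, 35 were gained and 4740 results stayed the same, so the list genes did not all keep their calls. The 18 genes of largest change shown here kept their direction under all 30 alternatives, and lost no call but that of Eno1 without the pool block (adjusted p = 0.0505). Genes under a few CPM rest on few UMIs per pool.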

Other observations

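Genes of cholesterol and fatty acid synthesis, a list assembled after their values were seen and therefore not tested as a list, stood higher in the osteocalcin-low than in the osteocalcin-high cells for 21 of 27 members, against 1 lower, with a median log2 fold change of 0.31, beside 31.8% of all tested genes that passed. Among the larger values were those of Scd2, a fatty acid desaturase (648 ± 140 against 446 ± 133 CPM, 0.58, higher in 16 of 16 pools), Lss, lanosterol synthase (0.55), and Fdps, farnesyl diphosphate synthase (0.52). Insig1, which restrains the pathway when sterol is plentiful, was the lower one (-0.22). Without called doublets 21 and in run 2 also 21 of the 27 were higher, and with library size alone 22 were higher and 0 lower.

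Class I antigen presentation genes, likewise listed after their values were seen, were lower for 5 of 14 members (35.7%, near the 31.8% of all tested genes that passed in either direction) and higher for 0, or lower for 4 and higher for 2 with library size alone. B2m, the shared light chain, had 2085 ± 198 CPM in the osteocalcin-low and 3083 ± 439 CPM in the osteocalcin-high cells, lower in 16 of 16 pools (log2 fold change -0.56 ± 0.04). H2-D1 had 1171 ± 291 against 1748 ± 433 CPM (-0.58 ± 0.04), also lower in 16 of 16 pools, and H2-K1 was at -0.20. The H2 genes are similar in sequence and differ between the founder strains of these mice, so reads may have been divided between them.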
